A study of Mus musculus with 7 samples.

Results

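The probes described here read small RNAs with the seeds of miR-342-3p, miR-139-5p, miR-101a-3p, and miR-125a-5p with miR-125b-5p, 4 families grouped here under the label of naive-associated miRNAs. The seed is bases 2 to 8 of a miRNA, the stretch that pairs with target mRNAs and by which miRNAs are grouped into families. A probe was taken when bases 2 to 8 of its target equalled one of these seeds, and 15 of 1874 probes did: 8 of the miR-125 seed, 4 of the miR-101 seed, 2 of the miR-139 seed and 1 of the miR-342 seed. Of the 15, 9 matched a mature mouse miRNA in RefSeq and 6 stayed unnamed. miR-151-5p, also on the list, is not analysed here. The calls did not settle that label: miR-101a-3p was called lower in the mean of both activated groups, whereas miR-342-3p, miR-139-5p and miR-101b-3p were called in no comparison. With 2 or 3 arrays per group, a missing call does not show that a miRNA was unchanged. Every activated array of miR-101b-3p lay below both naive arrays, which was not so for miR-342-3p and miR-139-5p. On sOVA host array 1 the margin was small (-2.62 against -2.53 on naive array 2). The share of all features split in this way is not given here, so the split does not bear on the label. miR-125a-5p, called lower in the WT host, was tested only because both naive arrays detected it, so its call does not bear on the label. The probes are therefore called below by their seeds.

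MiRNAs load into Argonaute proteins and lower the stability and translation of mRNAs that match their seed. miR-342-3p is made in lymphocytes from an intron of Evl, and miR-139-5p, from within Pde2a, is best known as a brake on growth pathways through targets such as Igf1r and Rock2. miR-101 represses the histone methyltransferase gene Ezh2 and, in mouse T cells, the costimulatory receptor gene Icos. miR-125a and miR-125b are mammalian relatives of the worm miRNA lin-4, and in human CD4 T cells miR-125b is known to be high in naive cells and to hold back effector genes.

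The mature sequences below are shown because the family of each probe rests on them. They come from the RefSeq annotation of mouse build GRCm38.p6, with the seed in capitals.
mmu-miR-342-3p: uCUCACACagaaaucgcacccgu
mmu-miR-139-5p: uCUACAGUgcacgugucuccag
mmu-miR-101a-3p: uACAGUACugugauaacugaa
mmu-miR-125a-5p: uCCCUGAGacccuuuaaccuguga
mmu-miR-125b-5p: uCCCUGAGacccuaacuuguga
mmu-miR-351-5p: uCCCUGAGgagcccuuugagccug
miR-342-3p lies at chr12:108658680-108658702 on the plus strand, within Evl, and miR-139-5p at chr7:101475382-101475403 on the plus strand, within Pde2a. miR-101a-3p lies at chr4:101346957-101346977 on the minus strand, within the long noncoding RNA gene E130102H24Rik. miR-125a-5p lies at chr17:17830817-17830840 on the plus strand, within Spaca6. miR-125b-5p is encoded at chr9:41581940-41581961, within the noncoding RNA gene Mir100hg, and at chr16:77646279-77646300, both on the plus strand. miR-351-5p, of the same seed, lies at chrX:53053315-53053338 on the minus strand, within C430049B03Rik. The annotation used gives gene spans and not exons.

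Several probes differ from these miRNAs by 1 base or by length, and their targets are shown because near-identical probes may share signal. Capitals again mark the seed, and targets are written as DNA.
UC1005002: tACAGTACtgtgataactgaag
UC1005000: tACAGTACtgtgataactgaa
UC1005005: tACAGTACtgtgatagctgaa
UC1005004: tACAGTACtatgataactgaag
UC1005029: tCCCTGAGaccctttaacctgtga
UC1005027: tCCCTGAGacccttaacctgtg
UC1005030: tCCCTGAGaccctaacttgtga
UC1005035: tCCCTGAGaccctaactcgtga
UC1005002 and UC1005000 read miR-101a-3p with 22 and 21 bases, and miR-101c, whose sequence they match as well, cannot be told apart from it. UC1005005 reads miR-101b-3p and, with positions counted from 1 at the target's 5′ end, differs from miR-101a-3p by A16G. The RefSeq entry of miR-101b-3p starts 1 base before that target. UC1005004, unnamed, is set apart from UC1005002 by A10G (its own base first). In the miR-125 family UC1005029 reads miR-125a-5p and UC1005030 reads miR-125b-5p. UC1005027 is 1 edit from miR-125a-5p, and UC1005035 differs from UC1005030 by C18T (its own base first). UC1005527 and UC1005528 read miR-351-5p, and UC1005090, unnamed, has 18 bases and differs from the miR-139-5p probe UC1005093 by C12T (the base of UC1005093 first). UC1005507 reads miR-342-3p.

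The cells were mouse CD4 T cells of the Balb/c strain with the DO11.10 receptor, which sees an ovalbumin peptide, sorted from pooled spleens and lymph nodes of animals 6 to 8 weeks old. In the sOVA host group (3 arrays) and the WT host group (2 arrays), CD4+ donor cells from DO11 Rag2-/- mice were injected into sOVA or WT Balb/c recipients. These recipients were immunized intravenously 24 h later with LPS-treated, Ova peptide-loaded dendritic cells grown from bone marrow, and CD44 high cells were sorted 5 days after transfer. The naive group (2 arrays) held CD25-, CD44 low cells of DO11.10 Rag2+/+ mice. Titles name the immunization OVA in the WT host and sOVA in the sOVA host, so host and immunization cannot be told apart. Activation, likewise, cannot be told apart from the donors' Rag2 genotype, the transfer and the sort, in all of which naive cells differed. The labels do not say whether replicates came from separate pools of mice. The p-values therefore cover only the scatter of these samples, possibly a technical one.

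Every level below is the log2 signal of a probe relative to the 75th percentile of its array, taken over the 253 probes detected on all 7 arrays. Levels of different probes cannot be set against each other. A probe counted as detected where at least 50% of its 7 spots were well above background. By that measure an array detected 309 to 467 probes. The lowest detected level was -5.82, -7.03 and -5.20 on sOVA host arrays 1, 2 and 3, -7.31 and -6.11 on WT host arrays 1 and 2 and -6.96 and -8.27 on naive arrays 1 and 2. Levels under it are near background, and arrays cannot be ordered by them. The reference signal itself, the 75th percentile, was 9860, 11114 and 2729 signal units on sOVA host arrays 1, 2 and 3, against 9281 and 3591 on WT host arrays 1 and 2 and 11868 and 15743 on naive arrays 1 and 2. sOVA host array 3 and WT host array 2 were thus dim, and both lay in slide row 2 with naive array 2, while the other 4 arrays lay in row 1. The labels were checked by 6 miRNAs of activated T cells. miR-21a was called higher than naive in both hosts, and miR-155 and miR-146a in the sOVA host. miR-182, miR-183 and miR-96 were also called higher in both hosts. No naive array detected them, so they passed the filter only through activated arrays, where they are high, and their calls are no check. Measured against the lowest detected signal, they were at least 10.0, 4.13 and 15.2-fold higher in the WT host. In the sOVA host the bound was 6.15-fold for miR-182 and 7.29-fold for miR-96, and 1 of 3 arrays detected miR-183. In bulk RNA, fewer cells of a type and less RNA per cell cannot be told apart.

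Detection divided the 15 probes. The miR-342-3p probe, the miR-139-5p probe and the miR-101b-3p probe were detected on all 7 arrays, 9 probes on some arrays, and 3 on none. The 3 were UC1005090 of the miR-139 seed and 2 unnamed probes of the miR-125 seed, UC1004710 and UC1005323. After probes with nested targets were merged the 15 made 13 features, of which 5 entered the test among 342 features by being detected throughout 1 group or more. These were miR-342-3p, miR-139-5p, miR-101a-3p (UC1005002), miR-101b-3p and miR-125a-5p. On an array where a member was detected, the SD over its spots ranged from 0.03 to 0.56 in log2 units, with a median of 0.11.

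miR-101a-3p fell in activated cells. Its log2 level on sOVA host arrays 1, 2 and 3 was -3.87, -4.56 and -5.90, on WT host arrays 1 and 2 it was -4.45 and -5.30, and on naive arrays 1 and 2 it was -2.54 and -2.84. Each of the 5 activated arrays lay below both naive arrays, and sOVA host array 3 alone did not detect it. Group means were -4.78 ± 1.03 (SD, n = 3) in the sOVA host, -4.87 ± 0.60 (SD, n = 2) in the WT host and -2.69 ± 0.21 (SD, n = 2) in naive cells. The mean of both hosts minus naive was -2.14 ± 0.58 (SE) on the log2 scale, a 4.40-fold fall with a 95% interval of -3.54 to -0.74 (adjusted p = 0.0381, limma). That size includes the undetected value of sOVA host array 3, and without this array the difference was -1.86. Among the 342 features 27.8% were called in this comparison, 9.06% lower, and miR-101a-3p ranked 11 from the most lowered. The calls were 64 higher and 31 lower, against 25 higher and 38 lower when arrays were scaled over all probes. Of the 5 tested members it was the only one called.

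In each host by itself miR-101a-3p missed the threshold. The sOVA host minus naive difference was -2.09 ± 0.63 (SE, adjusted p = 0.0593, limma), and with slide row as a factor it was -2.26 and was called (adjusted p = 0.0122, limma). The WT host minus naive difference was -2.19 ± 0.68 (SE, adjusted p = 0.0743, limma), called with slide row as a factor (adjusted p = 0.0207, limma). That factor raised the calls among all 342 features from 72 to 125 for the sOVA host and from 64 to 109 for the WT host. Within rows 1 and 2 the sOVA host difference was -1.68 and -3.07 and the WT host difference was -1.91 and -2.46. The sOVA host value in row 2 rests on array 3 alone, which did not detect miR-101a-3p, so it is no measure of size. The sOVA host and WT host comparisons use the same naive arrays. The sOVA host minus WT host difference was 0.10, with a 95% interval of -1.42 to 1.62. The call on the mean of both hosts was lost without naive replicate 1 (adjusted p = 0.227), naive replicate 2 (0.176), WT host replicate 1 (0.0648), WT host replicate 2 (0.118) or sOVA host replicate 2 (0.0590), all by limma, while the difference stayed between -2.35 and -1.93 in these fits. It was also lost with no detection filter (-2.14, adjusted p = 0.112, limma) and with quantile normalization (-2.54, adjusted p = 0.0669, limma). Leaving out both dim arrays leaves 1 WT host array, whose spread is assumed to be that of the other groups. The miR-101a-3p difference was then -1.53 for sOVA host minus naive and -1.76 for WT host minus naive.

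The 21-base probe of miR-101a-3p, UC1005000, was detected on both naive arrays and on 3 of 5 activated arrays. It stood at -5.25, -6.16 and -7.49 in the sOVA host, -6.15 and -7.24 in the WT host and -3.20 and -3.56 in naive cells, and the dim arrays sOVA host 3 and WT host 2 did not detect it. All 3 activated arrays that detected it lay below both naive arrays. With each probe as its own feature the fitted log2 difference was -2.92 for sOVA host minus naive (adjusted p = 0.0282, limma) and -3.31 for WT host minus naive (adjusted p = 0.0263, limma). It was tested only through the naive arrays, where it is high, and reads the same miRNA as the 22-base probe, so these calls are no further support. The other product of the hairpin, miR-101a-5p, was detected on both naive arrays and on 0 of 5 activated arrays. Its levels were -8.12, -9.36 and -7.49 in the sOVA host and -9.39 and -8.40 in the WT host, against -6.42 and -6.56 in naive cells. It passed the detection filter only through the naive arrays. Measured against the lowest detected signal, it was at least 1.16-fold lower in the WT host (adjusted p = 0.0527, limma). No such bound could be given for the sOVA host (adjusted p = 0.0707, limma) or for the mean of both hosts, where it was called (adjusted p = 0.0353, limma).

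miR-101b-3p, from another locus (chr19:29135279-29135375, within Rcl1), was not called. Its log2 level was -2.62, -3.28 and -4.63 in the sOVA host, -3.08 and -3.51 in the WT host and -2.37 and -2.53 in naive cells. All 7 arrays detected it and every activated array lay below both naive ones, sOVA host array 1 by the least. The mean of both hosts minus naive was -0.95 ± 0.54 (SE), with a 95% interval of -2.27 to 0.36 (adjusted p = 0.214, limma). For each host the difference from naive was -1.06 in the sOVA host (adjusted p = 0.222, limma) and -0.85 in the WT host (adjusted p = 0.371, limma). Whether miR-101a-3p and miR-101b-3p differ in their change was not tested. UC1005004, the unnamed probe of this seed, was detected on naive array 2 alone, where 57.1% of its spots were above background.

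A myeloid marker moved with the miR-101 difference, and the epithelial list was mixed. miR-223-3p, the myeloid marker on the list, was at 1.03% to 3.16% of the array's 75th percentile in the sOVA host and 1.24% and 2.08% in the WT host, against 12.1% and 14.3% in naive cells, and was called lower in both hosts. It was detected on 3 of 5 activated arrays, not on sOVA host array 1 or WT host array 2. It passed the detection filter only through the naive arrays, where it is high. The summed level of the 5 epithelial markers was 4.11% to 10.1% in the sOVA host, 3.31% and 3.58% in the WT host and 5.94% and 6.38% in naive cells. None of the 5 was detected on the dim arrays, sOVA host array 3 (4.11%) and WT host array 2 (3.31%). Those sums are near background, so the groups cannot be ordered by them. miR-200a-3p, called lower in both hosts, and miR-200b-3p, called lower in the WT host, were detected on the naive arrays alone. Both passed the filter only through those arrays. Measured against the lowest detected signal, miR-200a-3p was at least 1.45-fold lower in the WT host. No such bound could be given for miR-200a-3p in the sOVA host or for miR-200b-3p in the WT host. miR-205-5p was detected on 2 sOVA host arrays alone, and miR-200c-3p and miR-141-3p were detected in every group and not called. The part of these cells in the miR-101 difference was not tested.

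miR-125a-5p was called lower than naive in the WT host and was not called in the sOVA host. Its log2 level was -6.05, -5.70 and -6.88 on sOVA host arrays 1, 2 and 3, -9.17 and -8.35 on WT host arrays 1 and 2 and -6.38 and -6.18 on naive arrays 1 and 2. Detection was on 1 of 3 sOVA host arrays (array 2), 0 of 2 WT host arrays and 2 of 2 naive arrays, so it entered the test through the naive arrays. Group means were -6.21 ± 0.61 (SD, n = 3) in the sOVA host, -8.76 ± 0.58 (SD, n = 2) in the WT host and -6.28 ± 0.14 (SD, n = 2) in naive cells.

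Because no WT host array had miR-125a-5p above background, its level there is only bounded: it was at least 1.35-fold lower than in naive cells. The fitted log2 difference was -2.48 ± 0.48 (SE, adjusted p = 0.0161, limma). It is no measure of size, since 1 side was not above background and the filter passed the probe through the side where it is high. In this comparison 18.7% of features were called, 5.85% lower, and miR-125a-5p was the only one of the 5 tested members called. The calls were 44 higher and 20 lower, and scaled over all probes 19 higher and 20 lower. Within slide rows 1 and 2 the fitted difference was -2.79 and -2.18. Without naive replicate 1, naive replicate 2, WT host replicate 1 or WT host replicate 2 the call was lost (adjusted p = 0.0956, 0.102, 0.0978 and 0.0664, limma), as it was with no detection filter (0.246) and with normexp background (0.0757). In the sOVA host, where 2 of 3 arrays were not above background, the fitted difference from naive was 0.07, with a 95% interval of -1.001 to 1.14 (adjusted p = 0.908, limma). Of all features 21.1% were called in that comparison, 53 higher and 19 lower (5.56% lower), and 0 of the 5 tested members. Scaled to the 75th percentile over all probes, the split was 24 higher and 44 lower.

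Between the hosts no member was called. No feature of the 342 was called between the hosts (0% by limma, and 41 at an unadjusted p under 0.05). For miR-125a-5p the adjusted p was 0.331 (limma). With 1 of 3 sOVA host arrays and 0 of 2 WT host arrays above background, no size is given for that difference. Without sOVA host replicate 3, the dimmest array, 65 features were called and miR-125a-5p was among them (adjusted p = 0.00962, limma), with 1 of the remaining 2 sOVA host arrays above background.

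The unnamed probe UC1005027, 1 edit from miR-125a-5p, was at -6.68, -6.50 and -7.29 in the sOVA host, -9.39 and -8.41 in the WT host and -7.02 and -7.02 in naive cells. It was detected on sOVA host array 2 and naive array 2, and the other values are near background. The hairpin's other arm, miR-125a-3p, was detected on no array. Mir125a lies on chromosome 17 beside Mir99b and Mirlet7e, whose starts are 624 and 460 bases from its own. miR-99b-5p was at -6.23, -6.40 and -5.12 in the sOVA host, -9.15 and -7.95 in the WT host and -8.77 and -8.32 in naive cells, and was detected on sOVA host arrays 2 and 3 alone. No naive or WT host array detected it, unlike miR-125a-5p, which both naive arrays detected. let-7e-5p, detected on all arrays, lay between -3.52 and -2.74 and was not called in any comparison.

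miR-125b-5p was too patchy to test. Its log2 level was -5.88, -9.16 and -3.38 on sOVA host arrays 1, 2 and 3, -8.38 and -7.01 in the WT host and -8.62 and -7.66 in naive cells. It was detected on sOVA host array 3 and naive array 2, and the other 5 values lay under the lowest detected level of their arrays. The near-identical UC1005035 was detected on the same arrays, at -5.17 on sOVA host array 3 and -8.09 on naive array 2. Neither 3p arm of the miR-125b hairpins was detected on any array.

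Neighbours of the miR-125b hairpins in the genome were also detected on sOVA host array 3. Mir125b-1 starts 50501 bases from Mir100 on chromosome 9, and Mir125b-2 starts 47337 bases from Mir99a and 46616 bases from Mirlet7c-1 on chromosome 16. miR-99a-5p was at -5.35, -8.91 and -3.27 in the sOVA host, -8.95 and -6.40 in the WT host and -9.29 and -8.30 in naive cells. miR-100-5p was at -5.35, -8.91 and -3.17 in the sOVA host, -8.79 and -6.14 in the WT host and -9.29 and -10.10 in naive cells. Both were detected on sOVA host arrays 1 and 3 and on no other array. let-7c-5p was detected on all arrays: it was at 0.00, 0.26 and -0.71 in the sOVA host, 0.41 and -0.38 in the WT host and 1.32 and 1.19 in naive cells, and fell in the mean of both hosts by 1.32 on the log2 scale (adjusted p = 0.0437, limma).

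A stromal and a red cell marker were high on sOVA host array 3, where miR-125b-5p was detected. The summed level of the 3 stromal markers measured, of 5 listed, was 3.18%, 1.04% and 12.4% of the 75th percentile on sOVA host arrays 1, 2 and 3, 1.55% and 3.19% in the WT host and 1.18% and 1.74% in naive cells. Of these, miR-199a-3p and miR-199a-5p were not detected on any array, and miR-214-3p carried most of the sum. The red cell markers (2 measured of 3, miR-144-3p never detected) summed to 47.2%, 5.91% and 192% in the sOVA host, 10.1% and 29.0% in the WT host and 51.5% and 28.1% in naive cells, nearly all from miR-451a. miR-214-3p and miR-451a, both detected there, were at -3.43 and 0.94 on sOVA host array 3, their highest values. The endothelial miR-126a-3p was detected on naive array 2 alone. The part of these cells in the miR-125b-5p values was not tested.

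The other named member of the miR-125 seed, miR-351-5p, was detected on naive array 2 alone with both of its probes. The 25-base probe UC1005528 stood at -8.09, -8.53 and -6.73 in the sOVA host, -8.53 and -7.52 in the WT host and -7.29 and -6.90 in naive cells. Apart from naive array 2 these values are near background and give no order. Across the 8 probes of the seed, then, none was detected on all arrays of an activated group, and miR-125a-5p alone was detected on both naive arrays.

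miR-139-5p averaged lowest in the sOVA host and highest in the WT host, with naive cells between, and no difference was called. Its log2 level was -5.38, -5.63 and -3.83 on sOVA host arrays 1, 2 and 3, -2.56 and -3.73 in the WT host and -3.99 and -4.42 in naive cells, with all 7 arrays detected. Both WT host arrays lay above all others, though array 2 only narrowly above sOVA host array 3, which lay above both naive arrays and apart from its own group. Group means were -4.94 ± 0.97 (SD, n = 3) in the sOVA host, -3.15 ± 0.83 (SD, n = 2) in the WT host and -4.20 ± 0.30 (SD, n = 2) in naive cells. None of the differences passed: -0.74 for sOVA host minus naive (adjusted p = 0.413, limma), 1.06 for WT host minus naive (adjusted p = 0.306, limma) and -1.80 for sOVA host minus WT host (adjusted p = 0.362, limma).

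The difference of miR-139-5p between hosts ranked 4 from the most lowered of 342, with a 95% interval of -3.35 to -0.24. Over all 342 features the 5th percentile of this difference was -1.12. It was -2.94 within slide row 1 and -0.10 within row 2, which holds both dim arrays. Without sOVA host replicate 3 it was -2.36 and was called (adjusted p = 0.0277, limma), as 1 of 65 features called in that fit. Leaving out both dim arrays leaves 1 WT host array and assumes that it varies like the others. The differences of miR-139-5p were then -1.30 for sOVA host minus naive, 1.64 for WT host minus naive and -2.94 between the hosts. The other arm, miR-139-3p, was detected on sOVA host array 3 and WT host array 1. On those arrays it stood at -4.84 and -6.61. UC1005090, the shorter probe of the seed, was not detected.

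miR-342-3p did not pass in any comparison. Its log2 level was 0.68, 0.92 and 0.00 on sOVA host arrays 1, 2 and 3, 1.05 and 0.10 on WT host arrays 1 and 2 and 0.35 and 0.40 on naive arrays 1 and 2. Both dim arrays held the lowest values, and all other activated arrays lay above both naive arrays, so the groups overlapped. The unscaled signal was 15743, 21045 and 2729 in the sOVA host, 19177 and 3842 in the WT host and 15167 and 20715 in naive cells. The sOVA host minus naive difference was 0.16, with a 95% interval of -0.85 to 1.16 (adjusted p = 0.781, limma). For WT host minus naive it was 0.20 with an interval of -0.90 to 1.30 (adjusted p = 0.756, limma), and for sOVA host minus WT host -0.04 with an interval of -1.04 to 0.96 (adjusted p = 0.981, limma). As ratios, the intervals against naive ran from 0.556 to 2.23 in the sOVA host and from 0.535 to 2.46 in the WT host. With all probes in place of the 253 as the scaling set, the differences were -0.66 for the sOVA host and -0.32 for the WT host against naive, and the median of all features moved by -0.82 and -0.51.

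miR-342-5p, the other arm of the hairpin, was also detected on all arrays. It was at -4.21, -4.10 and -4.97 in the sOVA host, -4.40 and -4.79 in the WT host and -4.74 and -4.73 in naive cells, lowest on both dim arrays again. The mean of both hosts minus naive was 0.22 (adjusted p = 0.607, limma).

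Over the 5 tested members the median log2 difference was -0.74 for sOVA host minus naive, -0.85 for WT host minus naive, -0.04 for sOVA host minus WT host and -0.95 for the mean of both hosts minus naive. Over all 342 features it was 0.11, 0.27, -0.15 and 0.17. The signs were split in every comparison, with 3 members lower and 2 higher, where 47.4%, 41.2%, 59.9% and 44.2% of all features were lower, in the same order of comparisons. These medians and counts include miR-125a-5p, which was tested only through the naive arrays and whose fitted difference is no measure of size. They are therefore no measure of a change of the members as a set. Of the 18 other products of the same hairpins and clusters that were listed, 14 had a probe and 4 were tested. Of the 4, 2 were called lower in the mean of both hosts, miR-101a-5p (through the naive arrays alone) and let-7c-5p, where 9.06% of all features were, and none was called in the other comparisons.

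For each seed, the 3 other features with the most similar pattern were taken by Pearson r of the log2 levels over the 7 arrays, among 211 features detected throughout. Such an r rests on 7 arrays, 2 of them dim, and is a description. The pattern of miR-342-3p was nearest to miR-342-5p (r = 0.88), then to miR-15b-5p (r = 0.80) and the unnamed UC1004767 (r = 0.73). For miR-139-5p the nearest were miR-28a-5p (r = 0.92), miR-27b-3p (r = 0.92) and UC1005843 (r = 0.90). miR-27b-3p was at -2.19, -2.46 and -1.41 in the sOVA host, -0.30 and -0.88 in the WT host and -1.84 and -2.15 in naive cells, highest on the WT host arrays as miR-139-5p was. miR-125a-5p, itself above background on 3 of the 7 arrays, was nearest to miR-181a-5p (r = 0.84), a miRNA that tunes T cell receptor sensitivity, then to miR-181b-5p (r = 0.81) and UC1005704 (r = 0.73). Most values of miR-125a-5p in these r are near background, where arrays cannot be ordered, so they give no likeness of pattern. miR-181a-5p was at -0.47, -0.36 and -2.05 in the sOVA host, -2.94 and -2.38 in the WT host and 0.75 and 0.62 in naive cells. All sOVA host and WT host arrays of miR-181a-5p lay below both naive arrays. The nearest to miR-101b-3p were unnamed: UC1004805 (r = 0.96), UC1005094 (r = 0.94) and UC1005098 (r = 0.94).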

How the data were processed

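Small RNA was measured on 7 one-colour Agilent arrays, all on 1 slide with 1 scan time. Total RNA was extracted with Trizol and labelled with Cy3 (250 ng in the series' design text), per the labels' protocols. The deposited values are linear spot intensity with background already subtracted by Feature Extraction, version 9.5.1.1 per the file headers, and no scaling between arrays. The submitters' processing notes name version 10.6. Flags for outliers and for spots well above background were used as deposited by the authors. Saturation affected 0 spots, and precision is limited by the few arrays. The deposited value table was not used here.

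Targets were taken as the reverse complement of each probe without its last 10 T and a leading G. Names come from RefSeq mature sequences (build GRCm38.p6) that overlap a target without mismatch by at least 17 bases with at most 3 free at either end, and 668 of 1874 probes were named. Without outlier-flagged spots, the log2 values of a probe's spots were averaged, and the 75th percentile over the 253 probes was subtracted per array. Nested targets were merged into 1 feature, giving 1753, and 342 were tested with limma 3.58.1 in R 4.3.3 (lmFit and eBayes on group means over all 7 arrays), with Benjamini-Hochberg adjustment over the 342 and a threshold of 0.05. The code of the fit was tested on simulated data with the same scatter for every feature and array. These had no background floor and no dim arrays, so the test does not cover values near background or on dim arrays. For "at least N-fold", the mean of the bright group was divided by that of the undetected group, in which each array took its lowest detected signal or the probe's own, whichever was higher. The members and lists were chosen with earlier results of these data known, and all members were named by seed. The closing section gives 19 alternatives.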

Additional observations from a re-analysis of the deposited data

How the results depend on the processing

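The arrays are few: leaving out 1 array at a time gave 12 to 126 calls of features for sOVA host minus naive (72 in the report), 17 to 158 for WT host minus naive (64), 0 to 65 for sOVA host minus WT host (0) and 17 to 158 for the mean of both hosts minus naive (95). In that order of comparisons, limma called 125, 109, 0 and 143 features with slide row as a factor, 181, 159, 47 and 194 with array weights, and 151, 124, 47 and 151 with both dim arrays left out (chosen after seeing the data). Testing only features detected on all arrays gave 34, 25, 0 and 42 calls, and no detection filter 25, 16, 0 and 27. The 75th percentile over all probes as scale gave 24 higher and 44 lower calls for sOVA host minus naive (53 and 19 in the report), 19 and 20, 39 in all, for WT host minus naive (44 and 20), and 25 and 38, 63 in all, for the mean of both hosts (64 and 31). Other scalings that moved the higher share by over 10 percentage points were quantile normalization (34 higher and 28 lower) and normexp with it (27 and 26) for sOVA host minus naive, the median (33 and 25) for WT host minus naive, and normexp (36 and 29) for the mean of both hosts. Under the replicate block, WT host minus naive had 139 calls, the mean of both hosts 144 and sOVA host minus WT host 27; replicate 3 of the sOVA host has no partner and adds nothing there. Deviations from group means of same-numbered arrays correlated at 0.19 for both WT host and naive pairs. They correlated at 0.32 and -0.18 for sOVA host and naive pairs, and 0.35 and -0.60 for sOVA host and WT host pairs. In a group of 2 arrays the deviations mirror each other, so both WT host and naive pairs give the same value by construction. WT host array 2 and sOVA host array 3, of different numbers but both dim and in slide row 2, correlated at 0.61. These correlations cannot decide whether the numbers pair the samples. The cause of the moves in the counts of calls was not tested.

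Over the members 291 of the values under alternatives kept direction and side of the threshold, 29 became called, 13 lost a call (all given in the report), and 39 turned sign, none of them called. A scaling that moves all features alike turns small differences by construction. Relative to a shift of the median of all features of -0.82, -0.51, -0.30 and -0.67, scaling to all probes turned sOVA host minus naive to -0.66 for miR-342-3p and -0.75 for miR-125a-5p, WT host minus naive to -0.32 for miR-342-3p, sOVA host minus WT host to -0.21 for miR-101a-3p, and the mean of both hosts to -0.51 for miR-139-5p and -0.49 for miR-342-3p. Median scaling, which moved the median of all features by -0.094, -0.27, 0.17 and -0.18, gave -0.024 for miR-125a-5p (sOVA host minus naive), -0.070 (WT host minus naive), 0.13 (between hosts) and -0.0038 (both hosts) for miR-342-3p and -0.025 for miR-139-5p (both hosts). Quantile normalization (shifts of -0.18, -0.26, -0.0066 and -0.22) gave -0.82 for miR-125a-5p (sOVA host minus naive), -0.035 for miR-101a-3p (between hosts) and -0.16 for miR-139-5p (both hosts), and normexp -0.42 for miR-125a-5p (sOVA host minus naive) and -0.070 for miR-139-5p (both hosts). With slide row as a factor miR-101a-3p was at -0.073 between hosts. The replicate block gave 0.34 for miR-101b-3p and 0.23 for miR-342-3p between hosts and -0.12 for miR-139-5p in both hosts; array weights gave 0.30, 0.19 and -0.092, and leaving out both dim arrays 0.13 for miR-101b-3p. Leaving out 1 array gave -0.19 to 0.40 for miR-125a-5p and -0.037 to 0.42 for miR-342-3p in sOVA host minus naive, -0.28 to 0.67 for miR-342-3p in WT host minus naive, -0.36 to 0.66 for miR-101a-3p, -0.66 to 0.34 for miR-101b-3p and -0.52 to 0.43 for miR-342-3p between hosts, and -0.14 to 0.45 for miR-139-5p and -0.060 to 0.41 for miR-342-3p in both hosts. Detection by any spot kept 12 members with a detected array, as in the report, and by all spots 10; the median of spots moved a detected member by at most 0.22.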

Other observations

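The 22-base and 21-base probes of miR-101a-3p changed unequally. Over the arrays that detected both, the log2 gap between the longer and the shorter probe was 1.38 and 1.60 on sOVA host arrays 1 and 2 and 1.70 on WT host array 1, against 0.66 and 0.73 on naive arrays 1 and 2. The gap is a ratio within an array and says nothing of which probe, or whether the miRNA, changed. Neither the difference between the gaps nor its cause was tested.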
